A study of Macaca mulatta with 43 samples.

Results

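The genes described here encode structural proteins and lipid enzymes of the myelin sheath, 9 in number: MBP, CNP, MAL, PLLP, TSPAN2, GJB1, HAPLN2, ASPA and GAL3ST1. They were taken by name, as every probeset that the platform's probe table pairs with one of these symbols and no other. That gave 13 probesets for 9 genes, out of 23815 annotated probesets for 13705 genes that were tested, and all 13 passed the filter on low values. Each gene is given by the probeset with the highest mean over all arrays, and MBP, CNP and TSPAN2, which have more than 1 probeset, are also compared between probesets.

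Gene expression was measured in the prefrontal cortex of 43 adult male rhesus macaques aged 5 to 11 years, with RNA of Brodmann areas 24, 25 and 32 pooled within each animal and 1 array per animal. The 32 drinkers, first induced to drink by schedule-induced polydipsia, chose freely between water and 4% (w/v) ethanol for 22 hours a day over 1 year. The 11 controls received a maltose dextrin solution matched in calories, together with water. Drinkers came from cohort 4 (11 animals), cohort 5 (8), cohort 7a (8) and cohort 7b (5), and controls from cohort 5 (5), cohort 7a (4) and cohort 7b (2), so cohort 4 had no control of its own. RNA of cohorts 4 and 5 was extracted with one kit and RNA of cohorts 7a and 7b with another, and these pairs of cohorts were processed separately. Values are log2 signals, on which a difference of 1 is a doubling, and the signal of one probeset cannot be ranked against that of another.

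Oligodendrocytes wrap axons in many layers of their own membrane, and the sheath depends on adhesive proteins that hold the layers together and on a membrane rich in galactolipids. MBP binds the inner faces of the membrane and drives their compaction, CNP is a phosphodiesterase that keeps cytoplasmic channels open, and MAL and PLLP (plasmolipin) are raft-associated membrane proteins. TSPAN2 is a tetraspanin of the oligodendrocyte membrane, GJB1 forms gap junction channels between myelin layers, and HAPLN2 links matrix proteoglycans to hyaluronan at nodes of Ranvier. On the lipid side, ASPA releases acetate from N-acetylaspartate, a carbon source for myelin lipids, and GAL3ST1 makes sulfatide from galactosylceramide. In tissue of this kind, fewer oligodendrocytes and less RNA per oligodendrocyte cannot be told apart.

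Some arrays stood apart. The cohort 7b controls, animals 37 and 38, had median correlations of 0.973 and 0.975 with the other arrays of cohorts 7a and 7b, whereas the same measure lay between 0.983 and 0.994 for the remaining 41 arrays. Drinker 41 of cohort 7b had a mean BioB hybridisation control signal of 5.96, against 8.15 to 9.13 on the other 18 arrays of cohorts 7a and 7b. The difference between 3' and 5' actin probesets, a measure of RNA integrity and of labelling, was 1.26 ± 0.21 in drinkers and 0.82 ± 0.06 in controls of cohort 7a (SD, n = 8 and n = 4), and 4.54 ± 0.20 in drinkers and 4.50 ± 0.21 in controls of cohort 5 (SD, n = 8 and n = 5). Calls that were lost without one of these arrays are named where they are given, except for fits that were not repeated without single animals.

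MBP, PLLP, MAL, GJB1 and ASPA, 5 of the 9 genes, differed far more between animals than most genes did. With the means of the 7 groups removed, the MBP signal had an SD of 0.45 on the log2 scale, larger than that of 99.0% of the tested probesets, whose median SD was 0.15. PLLP (0.41), MAL (0.38), GJB1 (0.36) and ASPA (0.35) all exceeded 97.1% or more of the probesets. HAPLN2 (0.23), TSPAN2 (0.20) and GAL3ST1 (0.17) lay at the 86.5th, 78.0th and 66.0th percentiles. CNP lay at the other extreme, with an SD of 0.07 that was larger than that of only 0.56% of the probesets, although its other probeset, with an SD of 0.17, lay at the 65.1st percentile.

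Among the 8 drinkers of cohort 7a alone, MBP ran between 12.08 and 13.67 with a median of 12.63, a 3.01-fold span between the lowest and the highest animal. Its 4 controls read 12.06, 12.78, 13.09 and 13.61, so they covered almost the same span. PLLP, in the 5 drinkers of cohort 7b, read 7.88, 8.0, 8.33, 8.46 and 9.73, against 9.14 and 9.27 in the 2 controls. The highest drinker lay above both controls and the other 4 drinkers lay below both. In cohorts 4 and 5 the spans were narrower, with PLLP between 8.05 and 8.80 (median 8.43) in cohort 4 drinkers, between 8.14 and 9.28 (median 8.71) in cohort 5 drinkers, and at 8.27, 8.35, 8.61, 8.62 and 8.64 in cohort 5 controls.

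**Figure D1:**
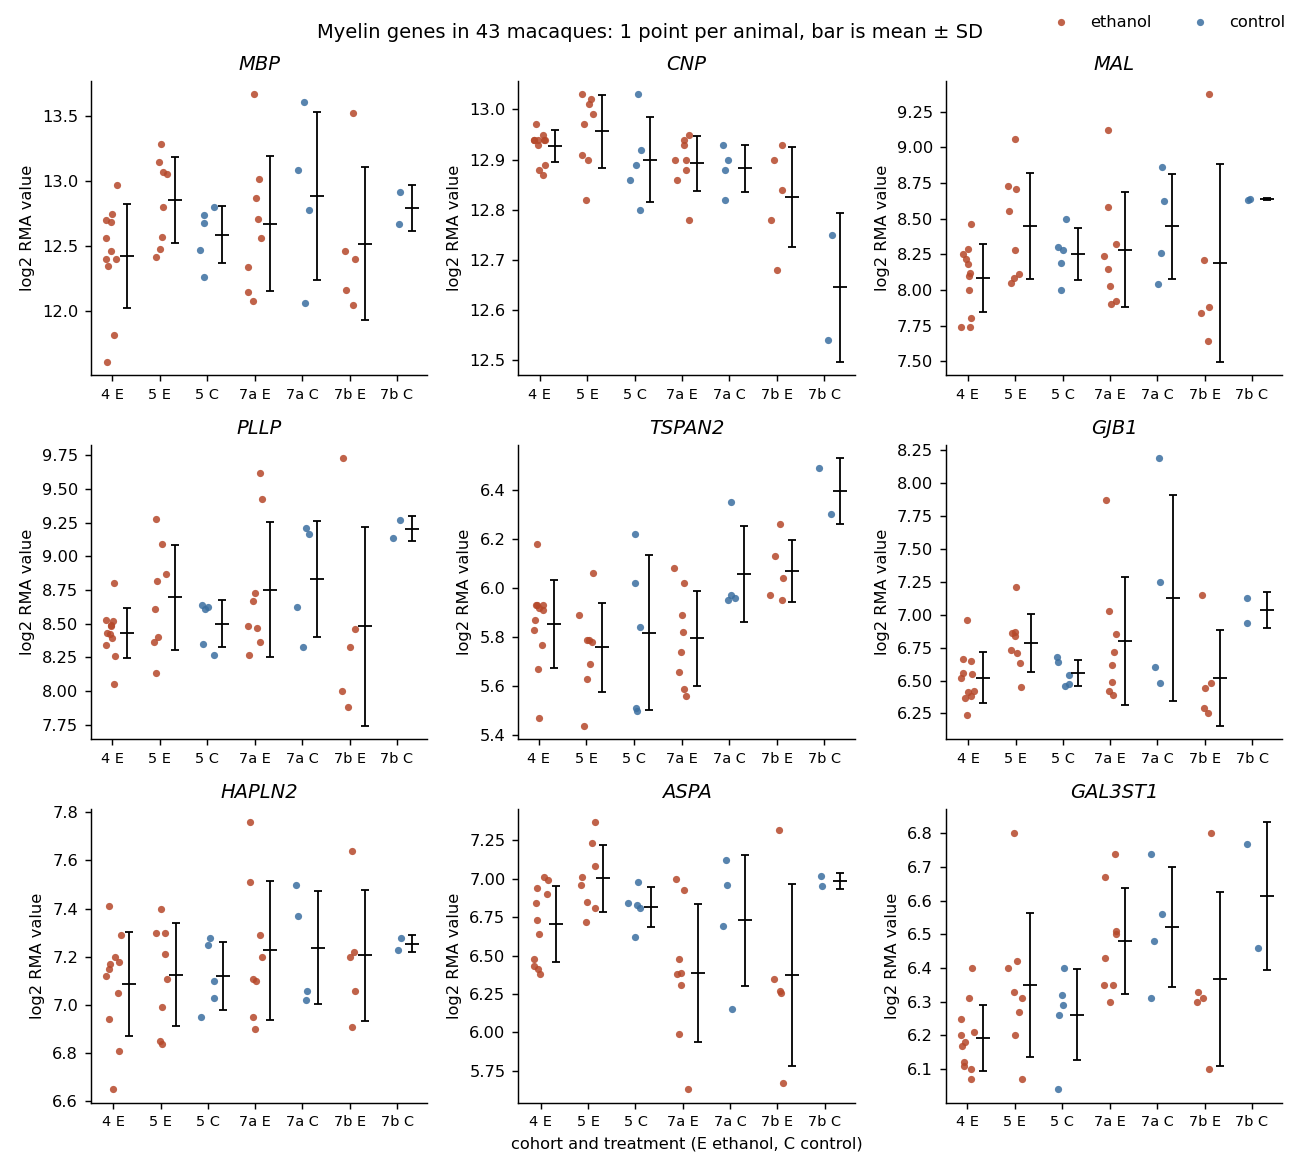
Log2 signal of each myelin gene (vertical axes, which do not start at 0) in each of the 43 animals, by cohort and treatment (horizontal axis; E ethanol, C control), with the mean ± SD beside the points. Drinkers and controls of a cohort overlap for every gene, except TSPAN2 in cohort 7b, and single animals of cohorts 7a and 7b stand far above their group for MBP, MAL, PLLP and GJB1.

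Whether a year of drinking shifted these genes was asked first over all animals, in a limma fit of treatment alone. None of the 9 genes passed an adjusted p of 0.05, where 16% of all tested probesets did (5.57% higher and 10.4% lower in drinkers), and 8 of the 9 differences were below 0. At an unadjusted p under 0.05 none of the 13 probesets was reached either, against 7414 of 23815 overall. The median difference over the 9 genes was −0.15, beside −0.04 over all tested probesets. It was −0.0745 without control 28 of cohort 7a and −0.0678 with cohort as a block.

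Among the structural proteins, MBP averaged 12.61 ± 0.46 in drinkers and 12.73 ± 0.41 in controls (SD, n = 32 and n = 11), a difference of −0.12 with a 95% interval from −0.43 to 0.18. MAL averaged 8.24 ± 0.41 in drinkers and 8.39 ± 0.28 in controls, and PLLP averaged 8.58 ± 0.44 in drinkers and 8.75 ± 0.38 in controls. For MAL the interval of the difference ran from −0.42 to 0.11 and for PLLP from −0.46 to 0.13. CNP was the only member whose estimate was above 0, at 12.91 ± 0.07 in drinkers and 12.85 ± 0.13 in controls (difference 0.06, 95% interval −0.01 to 0.13). All 32 drinkers lay within the range of the 11 controls for CNP.

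TSPAN2 averaged 5.85 ± 0.20 in drinkers and 6.01 ± 0.32 in controls, and its difference of −0.16 ± 0.08 (SE) had an adjusted p of 0.166 in limma. The gap junction gene GJB1 averaged 6.66 ± 0.33 in drinkers and 6.85 ± 0.52 in controls, and 11 of the 32 drinkers lay below every control. HAPLN2 averaged 7.15 ± 0.24 in drinkers and 7.19 ± 0.17 in controls. Of the lipid genes, ASPA averaged 6.65 ± 0.43 in drinkers and 6.81 ± 0.26 in controls, and GAL3ST1 6.33 ± 0.20 in drinkers and 6.42 ± 0.21 in controls. The lower end of the 95% interval was −0.46 for GJB1, −0.44 for ASPA and −0.23 for GAL3ST1.

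**Figure D2:**
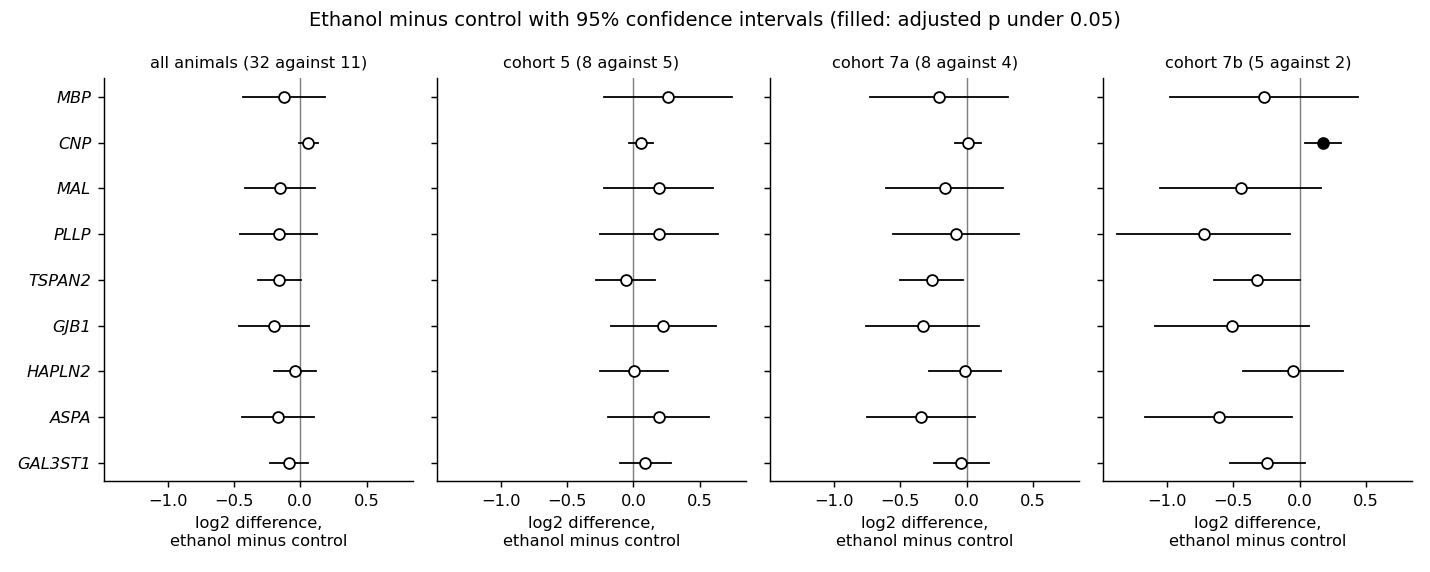
Log2 difference, ethanol minus control, with its 95% confidence interval (horizontal axis) for each myelin gene (rows) over all animals and within cohorts 5, 7a and 7b (panels, with the numbers of drinkers and controls). Only CNP in cohort 7b is filled, meaning an adjusted p under 0.05, and estimates for most genes lie above 0 in cohort 5 and below 0 in cohorts 7a and 7b.

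Because cohort 4 had no controls and the 2 processing groups differed, the comparison was repeated with cohort as a block. TSPAN2 then fell by 0.19 ± 0.07 (SE; limma adjusted p = 0.0424), the only one of the 9 genes to pass where 33.1% of all probesets did. With the arrays of cohorts 7a and 7b alone, TSPAN2 fell by 0.28 ± 0.08 (adjusted p = 0.00983; background 39.7%). Neither of these fits was repeated with single animals left out. Control 27 of cohort 7a had a TSPAN2 signal of 6.35, against 5.95 to 5.97 in the other controls of that cohort. The TSPAN2 difference was −0.13 with an adjusted p of 0.256 when the 8 processing batches replaced the cohorts (background 22.5%). Within the 7 batches that held both treatments, the TSPAN2 mean was lower in drinkers in 5, with differences between −0.59 and 0.34, while MBP was lower in 4, CNP in 3 and ASPA in 6.

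In cohort 5, the cohort with the most controls, no member passed and neither did any other probeset (0 of 23815 called, 723 at an unadjusted p under 0.05 in limma). The estimates leaned the other way from those over all animals. MBP averaged 12.85 ± 0.33 in drinkers and 12.59 ± 0.22 in controls (SD, n = 8 and n = 5), and 8 of the 9 genes had a difference above 0, with a median of 0.19. The GJB1 mean was 6.79 ± 0.22 in drinkers and 6.56 ± 0.10 in controls, a difference of 0.23 ± 0.20 (SE).

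In cohort 7a, 8 of the 9 differences were below 0 and none passed, where 30.7% of all probesets did (10.6% higher, 20.1% lower). The median difference was −0.16, and it was −0.10 with 6 of the 9 below 0 without control 27, and 0.0089 with 4 of the 9 below 0 without control 28. ASPA read between 5.63 and 7.00 in the 8 drinkers with a median of 6.38, against 6.15, 6.69, 6.96 and 7.12 in the 4 controls. Its difference was −0.34 ± 0.20 (SE; limma adjusted p = 0.202). GJB1 read between 6.39 and 7.87 in drinkers with a median of 6.67, against 6.48, 6.60, 7.25 and 8.19 in controls. Its difference of −0.33 depended on single animals, among them the 2 highest, drinker 31 and control 28. It was −0.55 without control 25, −0.51 without control 26, −0.29 without control 27 and 0.02 without control 28, none of which passed. Without drinker 31 it was −0.48 (limma adjusted p = 0.0453, where 30.7% of all probesets passed). That drinker was left out after the values were seen, because its members were the highest of these drinkers. The GJB1 call therefore rests on that choice. TSPAN2 read between 5.56 and 6.08 in drinkers with a median of 5.78, against 5.95, 5.96, 5.97 and 6.35 in controls (difference −0.26 ± 0.12 SE, adjusted p = 0.0846).

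The difference between the ethanol effects of cohorts 7a and 5 was tested directly. It was below 0 for all 9 genes, with a median of −0.28, and passed for none, where 14.3% of all probesets passed. The median was −0.44 without control 25 and −0.15, with 8 of the 9 below 0, without control 27. GJB1 came nearest, at −0.56 ± 0.29 (SE; limma adjusted p = 0.195). With single animals left out, the GJB1 difference ran from −0.78 to −0.21, weakest without control 28, and never passed. Without drinker 31 alone its limma adjusted p was 0.0517. With drinkers 31 and 41 left out, a choice made after the values were seen, it was −0.71 ± 0.24 (limma adjusted p = 0.0373, where 15.3% of all probesets passed). Drinker 41 is of cohort 7b, which does not enter this difference. Leaving it out as well changed only the error estimate and the adjustment, so this call rests on that choice. No main probeset had drinkers and controls apart in cohort 5 or cohort 7a, where 0.168% and 10.9% of all probesets did.

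In cohort 7b, with only 2 controls, CNP passed (12.83 ± 0.10 in drinkers and 12.65 ± 0.15 in controls; SD, n = 5 and n = 2; difference 0.18 ± 0.07 SE, limma adjusted p = 0.0329), where 40% of all probesets passed, 14% as higher and 26% as lower. Drinkers read 12.68, 12.78, 12.84, 12.90 and 12.93, against 12.54 and 12.75 in controls, so 4 of the 5 lay above both controls. The call was lost without drinker 39 (adjusted p = 0.0764), drinker 41 (0.0650) or control 38 (0.569), and the other CNP probeset differed by 0.05 ± 0.14 (adjusted p = 0.819). PLLP (−0.72 ± 0.32 SE, adjusted p = 0.0719) and ASPA (−0.61 ± 0.28, adjusted p = 0.0746) had the largest differences but did not pass.

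Drinker 41 weighed on these values. The MBP difference of −0.27 was −0.52 without it (limma adjusted p = 0.225). ASPA read 5.67, 6.26, 6.27, 6.35 and 7.32 in the 5 drinkers, against 6.95 and 7.02 in the controls, and MAL read 7.64, 7.84, 7.88, 8.21 and 9.37 in drinkers, against 8.63 and 8.64 in controls. In both genes, as for PLLP, drinker 41 was the one animal above the controls. Without it, 4 of the 9 genes passed as lower in drinkers, where 26.5% of all probesets did and 40.2% passed in either direction. These were PLLP (−1.04 ± 0.28 SE, limma adjusted p = 0.00268), ASPA (−0.85 ± 0.25, adjusted p = 0.0059), MAL (−0.74 ± 0.26, adjusted p = 0.0184) and GAL3ST1 (−0.35 ± 0.13, adjusted p = 0.0297). The only main probeset whose drinkers and controls did not overlap was that of TSPAN2, at 5.95, 5.97, 6.04, 6.13 and 6.26 in drinkers against 6.30 and 6.49 in controls, and 43.1% of all probesets did not overlap in this cohort.

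Drinkers of different cohorts were compared to see how far these genes vary between cohorts that were all given ethanol. The animals drank by choice and their intake was not part of the fits. Intake, cohort and processing batch can therefore all differ in these comparisons. Cohort 4 drinkers were lower than cohort 5 drinkers for 8 of the 9 genes, with none passing, as for all other probesets (0 of 23815; 895 at an unadjusted p under 0.05 in limma). MBP averaged 12.43 ± 0.40 in cohort 4 and 12.85 ± 0.33 in cohort 5 (SD, n = 11 and n = 8), a difference of −0.42 ± 0.20 (SE). Between drinkers of cohorts 7a and 7b no member passed, where 11.7% of all probesets did, and TSPAN2 came nearest (5.79 ± 0.19 in cohort 7a and 6.07 ± 0.13 in cohort 7b; SD, n = 8 and n = 5; difference −0.28 ± 0.11 SE, limma adjusted p = 0.0906).

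Markers of other cells were read beside the members, as far as the probe table pairs a probeset with their symbol alone. Of the 4 such neuronal markers, GAD2 rose in cohort 7a (by 1.51 ± 0.14 SE, limma adjusted p = 2.19e-10) and in cohort 7b (by 2.22 ± 0.20, adjusted p = 1.22e-11), whereas SYT1, SLC17A7 and GAD1 passed in neither, with differences from 0.06 to 0.23 in cohort 7a and from −0.11 to 0.26 in cohort 7b. The mean of the 4, which includes the large rise of GAD2, ran from 10.55 to 10.84 in drinkers and from 10.07 to 10.37 in controls of cohort 7a. Of the 6 microglial markers, 4 fell in cohort 7a, where 20.1% of all probesets did, one of them, TREM2, not without control 28 (limma adjusted p = 0.0586). In cohort 7b 2 fell and 1 rose, where 26% and 14% of all probesets did. The rise was that of CSF1R, by 0.36, a call lost without control 37, which leaves 1 control (difference 0.30). The mean of the 6 ran from 6.89 to 7.26 in drinkers and from 7.31 to 7.64 in controls of cohort 7a. Of 4 astrocyte markers, SLC1A2 rose in both cohorts and GFAP in cohort 7b. Of 3 precursor markers, PTPRZ1 fell in cohort 7a and GPR17 rose in cohort 7b. Of 4 endothelial markers, CLDN5 and PECAM1 fell in cohort 7b. Single left-out animals ended all of these calls but that of GFAP. The astrocyte mean ran from 11.86 to 11.97 in drinkers and from 11.48 to 11.50 in controls of cohort 7b, and overlapped in cohort 7a. Of the oligodendrocyte markers other than the members, UGT8, SOX10, OLIG2 and MYRF could be read. None was called in cohort 7a and UGT8 alone in cohort 7b, where 30.7% and 40% of all probesets passed. The UGT8 call was lost without control 37 or control 38. The mean of these 4 markers overlapped in cohort 7a, from 7.43 to 8.30 in drinkers and from 7.61 to 7.98 in controls. The actin 3' minus 5' value did not overlap in cohort 7a, from 0.93 to 1.60 in drinkers and from 0.76 to 0.87 in controls. In cohort 7b controls read 0.75 and 0.81, and drinkers 0.76 (drinker 41), 0.91, 1.00, 1.13 and 1.71, so only drinker 41 overlapped. The part of these differences in the members' values was not tested. With the actin 3' minus 5' value added to the cohort block, 7 of the 9 differences lay above 0, with a median of 0.05. None passed, where 15.5% of all probesets did. Because the actin value was apart or nearly apart between drinkers and controls of cohorts 7a and 7b, that fit cannot tell it apart from treatment there.

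Across animals of one group, 7 of the 9 genes went up and down together. Residuals from the group means were correlated for all 36 pairs in 43 animals, and all 21 pairs among MBP, MAL, PLLP, GJB1, HAPLN2, ASPA and GAL3ST1 had a positive Pearson r between 0.56 and 0.91, with a median of 0.69. MAL and PLLP were the closest pair (r = 0.91, rho = 0.89, two-sided permutation p = 1e-05, the smallest that 100000 resamples within groups can give, and 4e-05 adjusted over the 36 pairs). MBP and GAL3ST1 were the loosest (r = 0.56, rho = 0.56, permutation p = 0.00082, adjusted p = 0.00155). The genes had been chosen with earlier results of these arrays known, so these p-values describe the animals and are not independent evidence that myelin genes belong together.

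The 21 correlations ran from 0.33 to 0.85 within cohorts 4 and 5 (24 animals) and from 0.57 to 0.94 within cohorts 7a and 7b (19 animals). Without the 2 animals farthest from the median of the first gene they ran from 0.40 to 0.84. Leaving out drinkers 31 and 41, which had the highest mean of the members relative to their groups, lowered the median to 0.52 and kept 20 of the 21 pairs below an adjusted p of 0.05, the exception being MBP with GAL3ST1 (r = 0.37, adjusted permutation p = 0.051). The median over the 21 pairs was 0.72 in drinkers (32 animals) and 0.73 in controls (11 animals), and the difference was not tested.

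By the probeset with the highest mean, CNP and TSPAN2 did not follow. The 8 correlations of CNP with the others ran from −0.34 to 0.40 and those of TSPAN2 from −0.34 to 0.18, and none of these 15 pairs passed. CNP with GAL3ST1 was the highest (r = 0.40, rho = 0.36, permutation p = 0.0358, adjusted p = 0.0586), and CNP with TSPAN2 the lowest (r = −0.34, rho = −0.33, permutation p = 0.0405, adjusted p = 0.0635). For TSPAN2 this depended on the probeset. The one with the lowest signal correlated with MBP at 0.44, the middle one at 0.08 and the one used here at −0.10. They averaged 5.34, 5.66 and 5.89 over all animals, beside a median of 5.80 over all probesets. The part of weak signal in these correlations was not tested. The other CNP probeset correlated with MBP at 0.09.

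**Figure D3:**
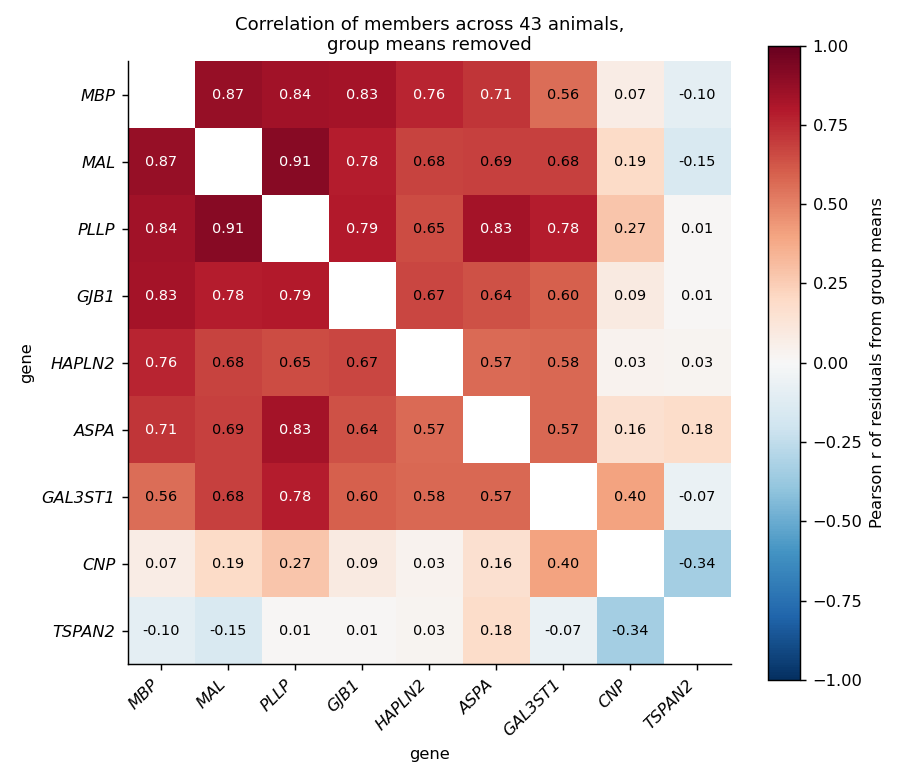
Pearson r between each pair of myelin genes (rows and columns) across 43 animals after the mean of each of the 7 groups was removed, coloured from −1 to 1. The block of 7 genes from MBP to GAL3ST1 has r between 0.56 and 0.91, whereas the rows of CNP and TSPAN2 lie between −0.34 and 0.40.

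Genes outside the 9 were ranked by the correlation of their residuals with the mean standardised residual of the members, over 13696 genes and 43 animals, as a description. UGT8, the enzyme that makes galactosylceramide, the substrate of GAL3ST1, came first with r = 0.92. Next came probesets labelled CRP (0.91), SPMIP7 (0.91), ACAN (0.91), ATP5MC1 (0.90), FAM107B (0.90), SEPTIN8 (0.90), ADAMTS4 (0.89), CLDND1 (0.89) and SEPTIN4 (0.88). SEPTIN8 and SEPTIN4 encode filament proteins found in mouse myelin, and ADAMTS4 encodes a protease that cuts the matrix proteoglycan encoded by ACAN. CRP is best known as an acute phase protein of liver, and these names rest on the platform's annotation, whose probe sequences were not checked. The lowest values belonged to RIN1 (−0.62), LOC715289 (−0.59) and ZGRF1 (−0.57). Of the members themselves, PLLP followed the mean most closely (0.96), with CNP at 0.30 and TSPAN2 at 0.09. Each member is a part of that mean, which raises its value beside those of genes outside the 9.

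Probesets of the same gene did not always agree. The brighter MBP probeset averaged 12.62 ± 0.53 in drinkers of cohorts 7a and 7b and 12.61 ± 0.42 in drinkers of cohorts 4 and 5 (SD, n = 13 and n = 19), whereas the other averaged 10.90 ± 0.61 and 9.01 ± 0.50 in the same animals, a difference of 1.89. Within groups the pair nevertheless moved together, with r = 0.97. For CNP the brighter probeset differed by −0.07 between these drinkers and the other by 0.86, and within groups they correlated at 0.59. Over all tested probesets the median size of this difference was 0.19. Extraction kit, processing and cohort cannot be told apart here.

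**Figure D4:**
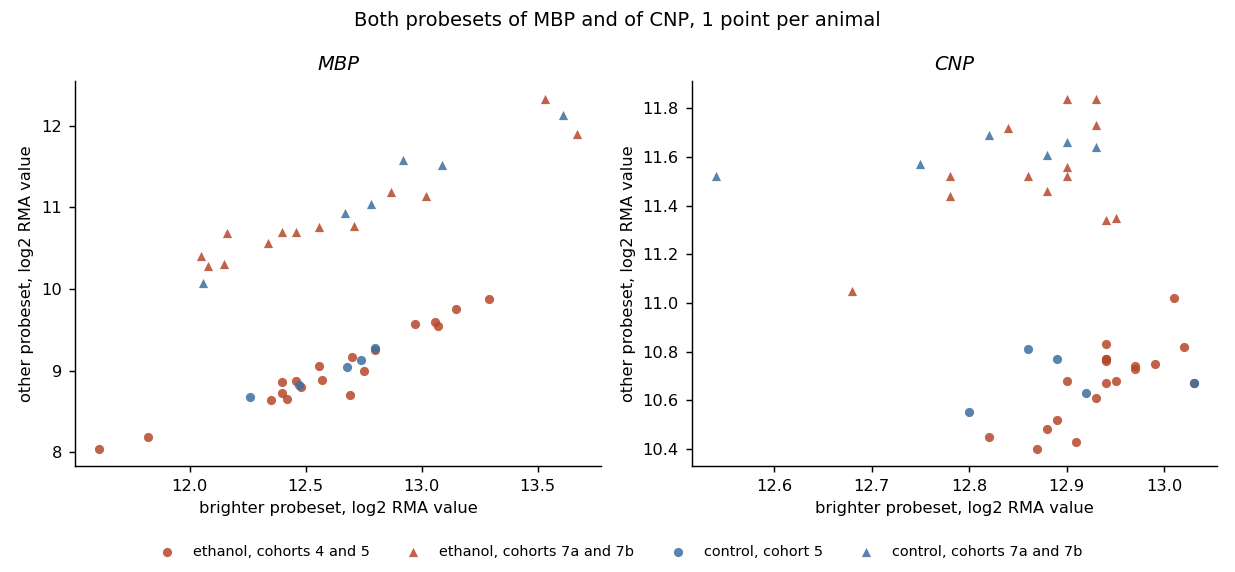
Log2 signal of the brighter probeset (horizontal axis) against the other probeset (vertical axis) for MBP and CNP, with 1 point per animal, triangles for cohorts 7a and 7b and circles for cohorts 4 and 5. For MBP the animals form parallel lines about 1.89 apart on the vertical axis, and for CNP drinkers of the 2 pairs of cohorts sit 0.86 apart on that axis.

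The 3 TSPAN2 probesets correlated at 0.32 to 0.40 within groups. The probeset with the lowest signal fell by 0.54 ± 0.16 (SE; limma adjusted p = 0.00671) in cohort 7b, where it read 5.04, 5.13, 5.23, 5.65 and 5.67 in drinkers against 5.86 and 5.91 in controls, and the call was lost without control 37 (adjusted p = 0.0700) and with that cohort's arrays alone (adjusted p = 0.0523). The middle one fell by 0.29 ± 0.12 in cohort 7a (adjusted p = 0.0497), a call lost when any 1 of the 4 controls of that cohort was left out (adjusted p between 0.052 and 0.113), without drinker 31 (0.0603), with that cohort's arrays alone (0.0590), with processing batch as a covariate (0.146), with no filter on low values (0.0508) and without single animals of other cohorts (controls 12, 16, 37 and 38 and drinker 43, between 0.0512 and 0.0531). Thus each of the 3 probesets averaged lower in drinkers in cohorts 7a and 7b, but only 1 of the 3 passed in each cohort, and not the same one. For the middle probeset, 2 of the 5 drinkers of cohort 7b lay above every control.

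Other myelin genes were read from lists. Of 12 further structural genes, CD9, a tetraspanin, and PMP22, a small membrane protein, were tested, and neither was called over all animals or in cohort 5. Both fell in cohort 7a (CD9 by 0.42 ± 0.17 SE, limma adjusted p = 0.0497; PMP22 by 0.33 ± 0.08, adjusted p = 0.00313), where 20.1% of all probesets did, and PMP22 fell by 0.48 ± 0.12 in cohort 7b, where 26% did. The CD9 call was lost when any 1 of 12 animals was left out, among them controls 26, 27 and 28 (adjusted p between 0.0504 and 0.199). Of 12 myelin lipid genes, 8 were tested. SGMS1, a sphingomyelin synthase, was the only one to fall over all animals (by 0.29 ± 0.10 SE, adjusted p = 0.0389; not without control 27, 28, 37 or 38, adjusted p between 0.0620 and 0.112), none was called in cohort 5, and the median difference of the 8 was −0.11.

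In cohort 7a, SGMS1 and SPTLC1, a subunit of the enzyme that starts sphingolipid synthesis, fell (by 0.42 ± 0.09 and 0.21 ± 0.07), where 20.1% of all probesets did, and SPTLC1 no longer passed without control 27 or 28. In cohort 7b, 5 of the 8 fell, where 26% of all probesets did. They were UGT8 (by 1.21 ± 0.39 SE, limma adjusted p = 0.0117), SGMS1 (by 1.09 ± 0.12, adjusted p = 3.43e-09), GALC, which degrades galactosylceramide (by 0.40 ± 0.11, adjusted p = 0.00375), SPTLC1 (by 0.40 ± 0.09, adjusted p = 0.000564) and DEGS1, a ceramide desaturase (by 0.30 ± 0.12, adjusted p = 0.0364). Of these, UGT8 and DEGS1 no longer passed without either control, GALC without control 37 (adjusted p = 0.0763), SPTLC1 without control 38 and DEGS1 without drinker 40 or 43, whereas SGMS1 passed with each left-out animal that was tried. The glial gap junction genes GJC3 and GJB6, the 2 of 4 listed that were tested, fell in cohort 7b as well, by 0.73 ± 0.13 (adjusted p = 2.67e-05) and 0.83 ± 0.21 (adjusted p = 0.00127). All genes of these lists other than SGMS1 were named after their values were seen.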

How the data were processed

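The authors normalised the Affymetrix Rhesus Macaque arrays in a single group with RMA in the affy package and deposited log2 values, 1 column per animal, without batch adjustment. Control probesets (99), probesets without exactly 1 gene symbol in the platform table and those whose log2 value stayed below 3.5 in 80% or more of the animals were left out here, which kept 23815 of 52865. Treatment was compared with limma 3.58.1 in R 4.3.3, as 2 classes over all animals and as contrasts of 7 cohort-by-treatment means, with Benjamini-Hochberg adjustment over all tested probesets and a threshold of 0.05. Fits were tested on simulated data. Animals are separate, and the number of arrays limits the precision. The 8 processing batches were recovered from which arrays share, for each probeset, one linear relation between the deposited values and the study's batch-adjusted values. The ComBat method, written out in R, applied to these batches differed from the latter by at most 5e-05. Correlations used residuals from group means and 100000 permutations within groups. The members, the lists and the rules for naming genes (every member, the 10 most and 3 least like genes, and the listed genes with the largest called change over all animals) were chosen with earlier results of these data known. Alternatives covered blocks, filters, thresholds, centring and each left-out animal of groups of 2 to 5.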

Additional observations from a re-analysis of the deposited data

Results flagged for a closer look

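Of 45 combinations of gene and group with 4 to 8 animals, 5 held an animal far from the rest of its group, and chance alone gives about 5% of such groups. The combinations are not independent, because most of these genes moved together within groups, so the 5 cannot be weighed against that share. Drinker 41 of cohort 7b had an MBP signal of 13.53, against 12.05 to 12.46 in the other 4 drinkers, and a GJB1 signal of 7.15, against 6.25 to 6.48. Drinker 31 of cohort 7a had a GJB1 signal of 7.87, against 6.39 to 7.03 in the other 7. Drinker 24 of cohort 5 had a GAL3ST1 signal of 6.80, against 6.07 to 6.42 in the other 7. Control 27 of cohort 7a had a TSPAN2 signal of 6.35, against 5.95 to 5.97 in the other 3 controls. For the mean standardised residual of the members, drinkers 41, 31 and 24 were the 3 highest of all 43 animals, at 2.14, 2.01 and 1.07. No reason for their levels was tested.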

How the results depend on the processing

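The number of arrays and the spread between animals limit these results, most of all in cohort 7b with 2 controls. No paired analysis was possible because animal numbers run through all groups and no 2 groups share one.

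Counts are of the 9 genes called in limma. Over all animals the count was 0, and it became 1 (TSPAN2) with cohort as a block and 1 with cohorts 7a and 7b alone. In cohort 7b the count of 1 (CNP) became 0 with processing batch as a covariate and 0 with that cohort's arrays alone, ran from 0 to 4 when single animals were left out, and became 5 without drinkers 31 and 41. In cohort 7a the count of 0 ran from 0 to 1 when single animals were left out and became 1 (GJB1) without both drinkers, as it did for the difference between cohorts 7a and 5. Leaving out drinkers 31 and 41, and leaving out animals for genes outside the 9, were chosen after the data were seen. The other alternatives left each of these counts within 1.5 times its value. With batch-adjusted values all 21 pairs kept a positive r, from 0.45 to 0.91, and 8 of the 10 most like genes stayed among the first 10.

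Some single estimates changed sign, none of them called as reported. Over all animals, cohort 5 alone gave 0.19 for ASPA, 0.0893 for GAL3ST1, 0.23 for GJB1, 0.0029 for HAPLN2, 0.19 for MAL, 0.26 for MBP and 0.20 for PLLP. The actin value beside the cohort block gave 0.0367 for ASPA, 0.0469 for GAL3ST1, 0.0031 for HAPLN2, 0.0811 for MAL, 0.0910 for MBP and 0.12 for PLLP. The mean of both probesets gave −0.0554 for CNP. Batch as a covariate gave −0.0538 for ASPA and −0.16 for HAPLN2 between drinkers of cohorts 7a and 7b, −0.0016 for CNP in cohort 7a and 0.0483 for HAPLN2 in cohort 7b. With single animals left out, estimates in cohort 7a ran from −0.0117 to 0.0266 for CNP, −0.11 to 0.0309 for GAL3ST1, −0.55 to 0.0213 for GJB1, −0.0892 to 0.0723 for HAPLN2, −0.49 to 0.0345 for MBP and −0.25 to 0.0480 for PLLP. In cohort 5 they ran from −0.0390 to 0.0422 for HAPLN2 and −0.14 to 0.0424 for TSPAN2, and in cohort 7b from −0.16 to 0.0250 for HAPLN2. Between drinkers of cohorts 7a and 7b they ran from −0.16 to 0.25 for ASPA, −0.0554 to 0.13 for HAPLN2 and −0.0425 to 0.39 for MAL, and for the difference between cohorts 7a and 5 from −0.0921 to 0.0694 for HAPLN2. The cause was not tested.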

Other observations

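The list of 16 genes of the node of Ranvier and the matrix around it, of which 14 were tested, moved in both directions. Over all animals SPTBN4, a spectrin of the nodal membrane skeleton, rose by 0.32 ± 0.08 (SE; limma adjusted p = 0.00597) and HAPLN1, a link protein related to HAPLN2, fell by 0.34 ± 0.08 (adjusted p = 0.00379), with no other member of the list called, where 5.57% of all probesets were higher and 10.4% lower. In cohort 7a 4 rose (BCAN, KCNA2, ANK3 and SPTBN4) and 2 fell (HAPLN1 and CNTN1), where 10.6% and 20.1% of all probesets did. In cohort 7b 6 rose, among them SPTBN4 by 0.78 ± 0.13, and HAPLN1 and CNTN1 fell, where 14% and 26% of all probesets did, whereas none was called in cohort 5. The SPTBN4 and ANK3 calls held in both cohorts with each left-out animal that was tried, while single animals ended those of BCAN, KCNA2, HAPLN1 and CNTN1 in cohort 7a and those of KCNA1, KCNA2, SCN8A, HAPLN1 and CNTN1 in cohort 7b (controls 25, 26, 27 and 28 and drinker 31; controls 37 and 38 and drinkers 40 and 43). The difference between cohorts 7a and 5 itself passed for SPTBN4 (0.48 ± 0.13 SE, adjusted p = 0.00756) and for ANK3, an ankyrin that anchors nodal channels (0.47 ± 0.11, adjusted p = 0.00324). Genes of this list other than SPTBN4 and HAPLN1 were named after their values were seen.

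Of 8 genes that handle N-acetylaspartate, related N-acetyl compounds or acetate, 5 were tested and none was called over all animals or in cohort 5. ACSS2, which makes acetyl-CoA from acetate, rose by 0.19 ± 0.07 (SE; limma adjusted p = 0.0427) in cohort 7a, where 30.7% of all probesets passed in either direction, a call lost without control 25, control 27 or drinker 31 (adjusted p between 0.0892 and 0.171). The mitochondrial enzyme ACSS1 rose by 0.49 ± 0.12 (adjusted p = 0.00102) in cohort 7b, and RIMKLA (not without either control) and RIMKLB fell, where 40% of all probesets passed.

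Across animals, the mean residual of the other oligodendrocyte markers followed the mean of the members with r = 0.89 and that of the myelin lipid list with r = 0.91. The same value was 0.18 for oligodendrocyte precursors, 0.10 for astrocytes, 0.15 for microglia, 0.14 for neurons, 0.28 for endothelium, −0.04 for smooth muscle and pericytes, −0.06 for the 1 Schwann cell gene read, and −0.37 for the actin 3' minus 5' value. These are descriptions over 43 animals, and UGT8 is in both of the first lists.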
